A study of Homo sapiens with 22 samples.

Results

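BMP2, BMP4, SMAD6, SMAD7, SMAD9, ID1, ID2, ID3, ID4 and ATOH8 are 10 human genes of bone morphogenetic protein (BMP) signalling, 10 of the 58735 genes in the human expression table. They were taken by symbol and were chosen by their measured expression over the 6 groups below. Fits and calls of their human values are therefore given only as a description, and nothing is concluded from them. The source was H3122, a human lung adenocarcinoma line of the ALK-positive kind, grown as xenograft tumours. The hosts were hHGF-NSG mice, which the labels call humanized for the growth factor HGF, and NSG mice, a strain that lacks T, B and NK cells but keeps its own stroma. The labels name no promoter for human HGF. Tumours were therapy-naive or had been treated with alectinib, an ALK kinase inhibitor, for 2 or 6 weeks. All groups carried the same line. There were 3 hHGF-NSG and 4 NSG therapy-naive libraries, 4 hHGF-NSG and 4 NSG libraries at 2 weeks, and 3 hHGF-NSG and 4 NSG libraries at 6 weeks, 22 in all. Replicates are separate libraries in the labels, which do not say that each came from its own animal, so a p-value here measures only the spread between these libraries, and that spread may be technical. The labels give neither age nor sex of the mice.

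BMPs are secreted dimers that bind paired type I and type II serine/threonine kinase receptors. The receptors phosphorylate SMAD1, SMAD5 or SMAD9 (also called SMAD8), which enter the nucleus with SMAD4. The best known direct targets are the ID genes, whose proteins are helix-loop-helix factors without a DNA-binding region that hold E proteins away from DNA. SMAD6 and SMAD7 are inhibitory SMADs, themselves induced by BMP or TGF-beta in many cells, and form a negative feedback. ATOH8 is a basic helix-loop-helix transcription factor that BMP signalling induces in endothelium and liver. SMAD9 is the weakest transducer of the 3.

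Values are FPKM, fragments per kilobase of gene length with a scaling for each library, so genes can be compared per length. The scaling did not follow the totals of recovered reads alone. In hHGF-NSG naive replicate 1, ID1 had 24.4 FPKM on 408 of 15439437 reads. In hHGF-NSG 2-week replicate 1 it had 43.0 FPKM on 921 of 16214866 reads. Limma-voom, an alternative below, used the recovered totals. The human tables held 10688632 to 19065656 reads per library. The tumour epithelial markers (all 8 averaged at least 1 FPKM in every group) summed to 2416 to 3535 FPKM in hHGF-NSG naive, 2413 to 3677 in NSG naive, 912 to 1174 in hHGF-NSG 2-week, 1109 to 1310 in NSG 2-week, 996 to 1249 in hHGF-NSG 6-week and 961 to 1218 in NSG 6-week libraries, while none of the 6 leukocyte markers averaged 1 FPKM in the human table. The 7 fibroblast markers, of which 1 or 2 averaged at least 1 FPKM in each group, summed there to 41.9 to 112 FPKM in hHGF-NSG and 26.8 to 42.1 in NSG naive, 6.38 to 8.35 and 8.54 to 11.6 in 2-week, and 12.6 to 16.4 and 5.19 to 14.3 in 6-week libraries. The 7 endothelial markers, with 2 or 3 at that level, summed to 5.47 to 7.70 FPKM in hHGF-NSG and 4.76 to 8.33 in NSG naive, 6.08 to 7.41 and 7.35 to 11.8 in 2-week, and 8.09 to 11.4 and 7.76 to 20.04 in 6-week libraries. Mouse reads made up 6.81% to 13.5% of hHGF-NSG and 5.5% to 12.0% of NSG naive libraries, 8.71% to 17.4% of hHGF-NSG and 12.1% to 20.2% of NSG 2-week libraries, and 24.3% to 29% of hHGF-NSG and 16.9% to 21.9% of NSG 6-week libraries. The part that these shifts have in any result was not tested. The library labelled NSG naive replicate 1 held 43 human HGF reads (0.320 FPKM), within the 13 to 79 of the hHGF-NSG libraries, where the other NSG libraries held 0 to 6. It goes against its label in this respect, and the members' differences from NSG naive tumours are given with and without it. Reads of bulk tumours cannot tell fewer cells of a type apart from less RNA per cell.

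SMAD proteins bind short GC-rich sites and the palindrome GTCTAGAC, and the E-box CAGCTG is a binding site of basic helix-loop-helix dimers. For sequence context, promoter stretches of 4 members are shown, among them SMAD6, which held the palindrome but was below 1 FPKM in every library. They are from RefSeq on GRCh38.p14, read 5′ to 3′ on the gene's strand, and capitals mark the palindrome GTCTAGAC, the GC-rich site GGCGCC, its variant GGAGCC (read as GGCTCC on the other strand) and the E-box CAGCTG.
ID1, chr20:31605039-31605288, plus strand: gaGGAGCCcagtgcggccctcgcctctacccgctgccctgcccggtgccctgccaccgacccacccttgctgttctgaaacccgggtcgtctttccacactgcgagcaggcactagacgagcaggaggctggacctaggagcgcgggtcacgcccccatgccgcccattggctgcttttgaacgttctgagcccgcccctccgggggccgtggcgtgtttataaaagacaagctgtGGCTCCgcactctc
ID4, chr6:19837120-19837369, plus strand: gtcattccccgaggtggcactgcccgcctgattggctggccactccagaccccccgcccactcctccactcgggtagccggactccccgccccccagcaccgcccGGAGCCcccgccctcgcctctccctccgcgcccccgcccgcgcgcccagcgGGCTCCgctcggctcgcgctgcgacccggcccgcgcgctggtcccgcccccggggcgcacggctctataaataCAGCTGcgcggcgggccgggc
SMAD6, chr15:66701986-66702235, plus strand: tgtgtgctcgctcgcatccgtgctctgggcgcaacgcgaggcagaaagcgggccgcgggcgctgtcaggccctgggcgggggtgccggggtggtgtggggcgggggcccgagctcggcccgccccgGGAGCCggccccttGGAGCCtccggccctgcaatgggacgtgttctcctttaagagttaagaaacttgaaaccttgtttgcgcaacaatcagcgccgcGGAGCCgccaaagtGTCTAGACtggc
ATOH8, chr2:85753741-85753893, plus strand: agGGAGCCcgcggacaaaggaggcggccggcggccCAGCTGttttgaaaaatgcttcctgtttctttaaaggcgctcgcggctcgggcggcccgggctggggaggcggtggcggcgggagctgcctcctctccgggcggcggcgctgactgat
The first 3 run over the 250 bases before the RefSeq start, and for ATOH8 only the 153 bases from position -250 to -98 are shown, which lie outside annotated exons but inside the gene's span in the files. Of the ID1 and SMAD6 stretches, 6 and 8 bases lie in the gene's own annotated exons, and the SMAD6 palindrome crosses that border. Both strands were searched, and no 2 of the 4 motifs overlap one another in these stretches. Of 35116 promoter windows of 250 bases, 0.182% held GTCTAGAC, and SMAD6 was the only one of the 9 members with a window to hold it, at position -12. GGAGCC was in 30.6% of all windows and in 8 of the members' 13 windows, since some members have more than 1 window. Those 8 windows belong to 8 of the 9 members, ID1 holding it at -248 and -14 and ID4 at -145 and -94. CAGCTG was in 14% of all windows and in 3 of the 13, those of ID2, ID4 and ATOH8, at -21 in ID4 and at -215 in ATOH8. GGCGCC was in 16.4% of all windows and in 1 of the 13, a window of BMP4. A match is a run of letters in a window and is no evidence of binding.

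ATOH8, on chromosome 2 at 85751344 to 85788066 (hg38, plus strand), was near the limit of detection in naive tumours, and at 6 weeks it had the largest log2 difference from naive of the members in both hosts. It had 0.0243, 0.0216 and 0.177 FPKM in hHGF-NSG naive and 0.0120, 0.0521, 0.108 and 0.0689 FPKM in NSG naive libraries, which is 2, 2 and 16 reads and 1, 5, 9 and 7 reads. At 2 weeks it had 1.60, 1.13, 2.21 and 1.68 FPKM in hHGF-NSG and 1.43, 1.79, 1.22 and 1.23 FPKM in NSG libraries. At 6 weeks it had 9.99, 10.6 and 5.86 FPKM in hHGF-NSG and 7.64, 5.93, 6.00 and 4.98 FPKM in NSG libraries. No naive library reached the lowest 2-week library, and no 2-week library reached the lowest 6-week library, in either host. The ratio of 2-week to naive means was 22.3 in hHGF-NSG and 23.6 in NSG tumours, and that of 6-week to naive means 119 and 102, on naive sums of only 20 and 22 reads. Between 6 and 2 weeks the ratio was 5.32 in hHGF-NSG and 4.33 in NSG tumours, a log2 difference of 1.86 ± 0.16 and 1.55 ± 0.15 (SE). On the log2(FPKM + 1) scale used for all log2 differences here, which understates changes of low genes, 6 weeks stood 3.16 ± 0.18 above naive in hHGF-NSG and 2.74 ± 0.15 in NSG tumours. At 2 weeks ATOH8 stood 1.29 above naive in hHGF-NSG, where ID4 stood 1.35 above naive, and 1.18 in NSG tumours, where BMP4 stood 1.37 above naive. ATOH8 passed the filter on low values only through the treated groups, since 0 of 7 naive libraries reached 1 FPKM. The microRNA gene MIR6071 lies within ATOH8, and whether counting used strand is not stated in the labels.

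**Figure D1:**
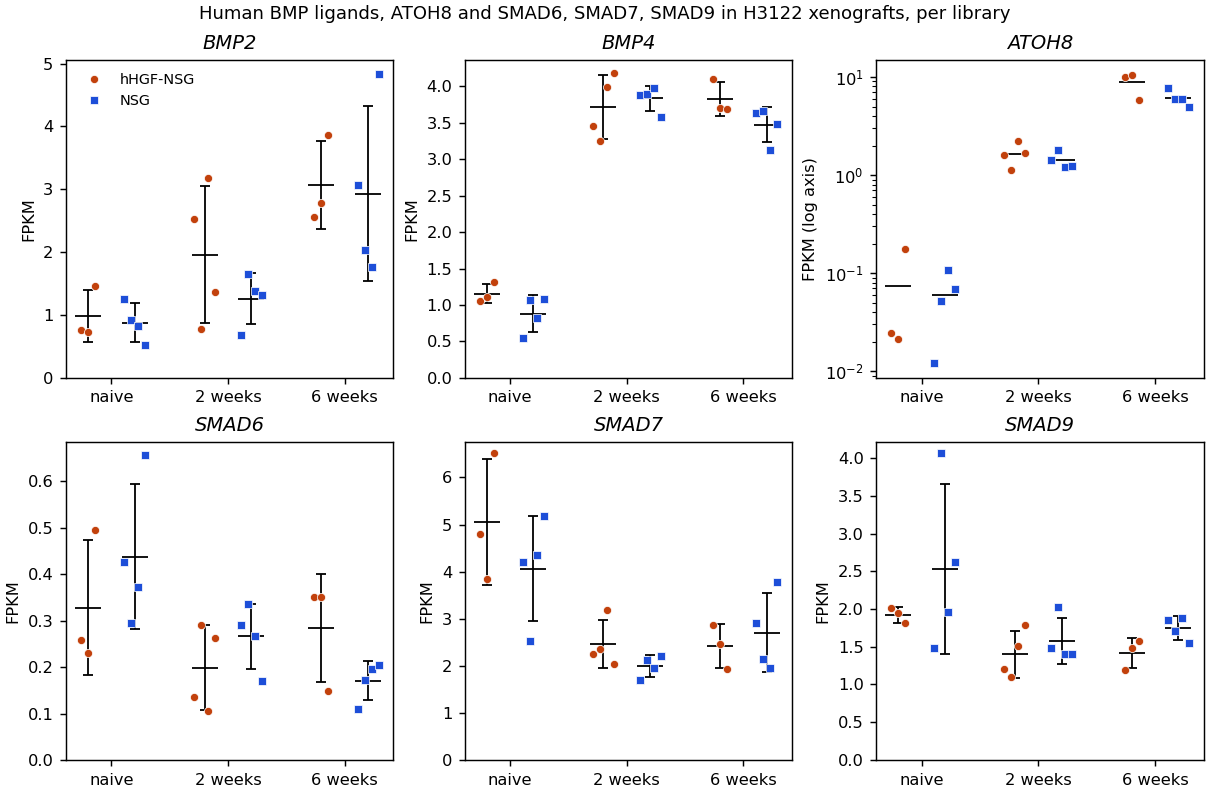
Expression of BMP2, BMP4, SMAD6, SMAD7, SMAD9 and ATOH8 in FPKM, one point per library, by host and treatment, with a black bar at the group mean and, except for ATOH8, an error bar of 1 SD. The ATOH8 axis is logarithmic: its naive libraries lie at 0.0120 to 0.177 FPKM, its 2-week libraries at 1.13 to 2.21 and its 6-week libraries at 4.98 to 10.6.

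ID1, the most abundant member (chromosome 20, 31605283 to 31606515), averaged higher after treatment in both hosts. In hHGF-NSG tumours it had 24.4, 21.6 and 34.8 FPKM in naive, 43.0, 38.0, 68.4 and 54.5 at 2 weeks and 91.6, 97.2 and 55.9 at 6 weeks. In NSG tumours it had 23.5, 14.1, 34.5 and 30.0 FPKM in naive, 42.2, 37.0, 32.6 and 30.4 at 2 weeks and 61.6, 53.3, 54.7 and 51.6 at 6 weeks. The hHGF-NSG libraries at both times and the NSG libraries at 6 weeks lay above every naive library of their host, whereas at 2 weeks the NSG libraries overlapped the naive ones. Means at 6 weeks were 81.6 ± 22.4 FPKM in hHGF-NSG (SD, n = 3) and 55.3 ± 4.39 in NSG tumours (SD, n = 4), 3.03 and 2.16 times the naive means. The log2 difference from naive was 0.89 ± 0.25 and 0.52 ± 0.23 at 2 weeks and 1.55 ± 0.27 and 1.15 ± 0.23 at 6 weeks (SE), hHGF-NSG given before NSG. Without NSG naive replicate 2 the NSG value at 2 weeks was 0.27.

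ID4, another family member (chromosome 6, 19837386 to 19840684), had 5.58, 6.96 and 6.00 FPKM in hHGF-NSG naive tumours, 15.7, 16.8, 17.3 and 19.3 at 2 weeks and 27.6, 28.2 and 16.6 at 6 weeks. NSG tumours had 6.95, 15.2, 10.6 and 9.80 FPKM in naive, 12.5, 15.8, 14.2 and 15.1 at 2 weeks and 21.6, 19.3, 23.9 and 14.6 at 6 weeks. Every treated hHGF-NSG library lay above the naive ones, whereas the treated NSG libraries overlapped the highest NSG naive library, replicate 2 with 15.2 FPKM. The ratio to naive was 2.79 in hHGF-NSG and 1.35 in NSG tumours at 2 weeks, and 3.91 and 1.87 at 6 weeks. In naive tumours ID4 averaged 6.18 ± 0.709 FPKM in hHGF-NSG (SD, n = 3) and 10.6 ± 3.42 in NSG (SD, n = 4), a log2 difference of -0.66 ± 0.20. On leaving out the library labelled NSG naive replicate 1, that difference was -0.82, and the NSG log2 difference from naive was 0.28 at 2 weeks against 0.45 with it, and 0.70 at 6 weeks against 0.87 with it. AL022068.1, a gene on the opposite strand over ID4, reached 2.54 FPKM, so reads of the pair may be mixed.

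ID3 (chromosome 1, 23557918 to 23559794) was lower than ID1 in every library and had its highest values in hHGF-NSG tumours at 6 weeks. It had 3.37, 1.20 and 2.77 FPKM in hHGF-NSG naive, 3.65, 3.86, 3.91 and 4.60 at 2 weeks and 7.11, 10.1 and 6.43 at 6 weeks. In NSG tumours it had 2.40, 1.59, 2.63 and 2.20 FPKM in naive, 4.79, 1.57, 3.46 and 2.51 at 2 weeks and 4.69, 4.08, 5.45 and 4.41 at 6 weeks. The treated hHGF-NSG libraries and the NSG libraries at 6 weeks lay above the naive libraries of their host, and at 6 weeks the hHGF-NSG libraries lay above the NSG libraries. Ratios to naive were 1.64 in hHGF-NSG and 1.40 in NSG tumours at 2 weeks, and 3.22 and 2.11 at 6 weeks. The hHGF-NSG log2 difference at 2 weeks was 0.59 ± 0.23, and 0.30 without hHGF-NSG naive replicate 2, the library with 1.20 FPKM. ID2 (chromosome 2, 8678845 to 8684453) stood apart from the other ID genes by its narrow range, 6.65 to 13.7 FPKM over all 22 libraries. Its largest log2 difference from naive was 0.46 ± 0.12 in hHGF-NSG tumours at 2 weeks, where the libraries lay above the naive ones, and in NSG tumours it was 0.04 ± 0.11 at 2 weeks and -0.02 ± 0.11 at 6 weeks.

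**Figure D2:**
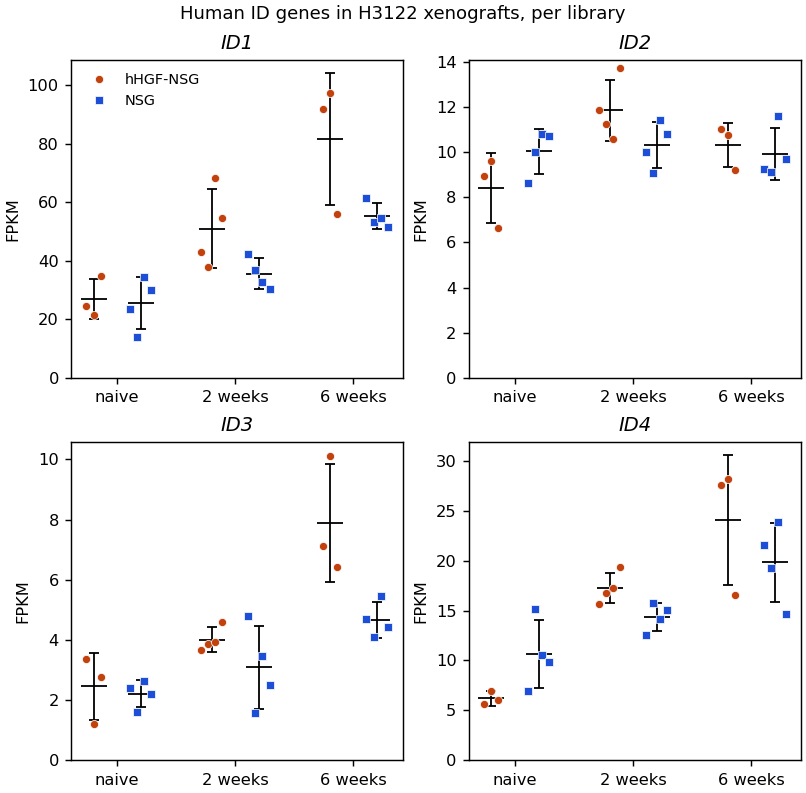
Expression of ID1, ID2, ID3 and ID4 in FPKM on linear axes, one point per library, by host and treatment, with a black bar at the group mean and an error bar of 1 SD. ID1 averages 81.6 FPKM in hHGF-NSG and 55.3 in NSG tumours at 6 weeks, while ID2 stays between 6.65 and 13.7 FPKM in every library.

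Among the ligands, BMP4 (chromosome 14, 53949736 to 53958761, minus strand) differed as a step. It had 1.05, 1.10 and 1.31 FPKM in hHGF-NSG naive, 3.46, 3.25, 3.99 and 4.18 at 2 weeks and 4.10, 3.70 and 3.69 at 6 weeks. In NSG tumours it had 0.545, 1.07, 0.825 and 1.09 FPKM in naive, 3.88, 3.90, 3.98 and 3.58 at 2 weeks and 3.63, 3.66, 3.13 and 3.48 at 6 weeks. All 15 treated libraries lay above all 7 naive libraries, with 3.22 and 4.35 times the naive mean at 2 weeks in hHGF-NSG and NSG tumours and 3.31 and 3.94 times at 6 weeks. Between 6 and 2 weeks BMP4 differed by 0.04 ± 0.10 in hHGF-NSG and -0.11 ± 0.09 in NSG tumours on the log2 scale (SE). BMP2 (chromosome 20, 6767664 to 6780280), the closest relative of BMP4, had 0.759, 0.728 and 1.46 FPKM in hHGF-NSG naive, 2.53, 0.779, 3.18 and 1.36 at 2 weeks and 2.56, 2.78 and 3.87 at 6 weeks. NSG tumours had 1.26, 0.915, 0.827 and 0.515 FPKM in naive, 0.690, 1.65, 1.38 and 1.31 at 2 weeks and 3.07, 2.04, 1.76 and 4.84 at 6 weeks. BMP2 was thus spread widely within groups, overlapped naive at 2 weeks in both hosts, and lay above it at 6 weeks in both, with ratios of 3.13 and 3.33. Only 2 of 7 naive libraries reached 1 FPKM of BMP2.

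Of the SMADs, SMAD7 (chromosome 18, 48919853 to 48952052, minus strand), which blocks both the BMP and the TGF-beta receptors, averaged lower after treatment. It had 4.80, 3.85 and 6.51 FPKM in hHGF-NSG naive, 2.24, 2.37, 3.19 and 2.03 at 2 weeks and 2.86, 2.46 and 1.93 at 6 weeks. NSG tumours had 4.20, 2.52, 4.36 and 5.17 FPKM in naive, 1.70, 2.13, 1.95 and 2.20 at 2 weeks and 2.92, 2.15, 1.96 and 3.79 at 6 weeks. Treated and naive libraries did not overlap except in NSG tumours at 6 weeks, and the log2 difference from naive was -0.80 ± 0.19 in hHGF-NSG and -0.73 ± 0.17 in NSG tumours at 2 weeks, and -0.81 ± 0.20 and -0.45 ± 0.17 at 6 weeks (SE). SMAD9 (chromosome 13, 36844831 to 36920765, minus strand) ranged from 1.10 to 1.79 FPKM in treated and 1.81 to 2.01 in naive hHGF-NSG tumours, without overlap, and from 1.40 to 2.03 in treated and 1.48 to 4.06 in naive NSG tumours, with overlap. The 6-week mean of SMAD9 was 0.736 times naive in hHGF-NSG and 0.691 times in NSG tumours. The NSG log2 difference was -0.41 at 2 weeks and -0.31 at 6 weeks, and -0.22 and -0.12 without NSG naive replicate 2, the naive library highest in SMAD9 (4.06 FPKM). SMAD9-IT1, an intronic gene on the same strand, reached 1.23 FPKM. SMAD6 (chromosome 15, 66702228 to 66782848), the BMP-selective inhibitory SMAD, was below 1 FPKM in all 22 libraries (13 to 94 reads) and did not pass the filter. It averaged 0.283 ± 0.117 FPKM at 6 weeks and 0.328 ± 0.145 in naive hHGF-NSG tumours (SD, n = 3 each), and 0.171 ± 0.0425 at 6 weeks and 0.438 ± 0.155 in naive NSG tumours (SD, n = 4 each), without overlap in NSG.

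With limma and Benjamini-Hochberg adjustment over the 16029 human genes tested, 9 of the 10 members entered the fit, ATOH8 only through its treated libraries. In hHGF-NSG tumours at 2 weeks 6 were called higher and 1 lower at an adjusted p of 0.05, where 54.1% of all genes were called, 27.5% higher and 26.6% lower. In NSG tumours at 2 weeks 3 were called higher and 2 lower, where 56.1% of all genes were called, 28.1% higher and 28% lower. At 6 weeks 6 were called higher and 1 lower in hHGF-NSG tumours, where 51.3% of all genes were called, 25.9% higher and 25.5% lower. In NSG tumours at 6 weeks 6 were also called higher and 1 lower, where 57.6% of all genes were called, 28.8% in each direction. Between 6 and 2 weeks 2 members were called in each host, against 9.08% of all genes in hHGF-NSG and 20.4% in NSG tumours. These counts come from the values that chose the genes, and nothing is read from them. The 2-week and 6-week comparisons of one host share its naive libraries. On leaving out the library labelled NSG naive replicate 1, the log2 difference of 6-week from naive NSG tumours was 2.72 for ATOH8, 1.17 for BMP4, 1.14 for ID1, 0.86 for ID3, -0.42 for SMAD7 and -0.46 for SMAD9, against 2.74, 1.26, 1.15, 0.83, -0.45 and -0.31 with it. BMP2 stood at 1.11 without and 1.01 with that library, and ID2 at -0.08 and -0.02. At 2 weeks the same difference without that library was 1.16 for ATOH8, 1.28 for BMP4, 0.51 for ID1, 0.33 for ID3, -0.71 for SMAD7, -0.56 for SMAD9, 0.35 for BMP2 and -0.03 for ID2, against 1.18, 1.37, 0.52, 0.30, -0.73, -0.41, 0.26 and 0.04 with it. ID2 was the member whose sign turned, at a value near 0.

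**Figure D3:**
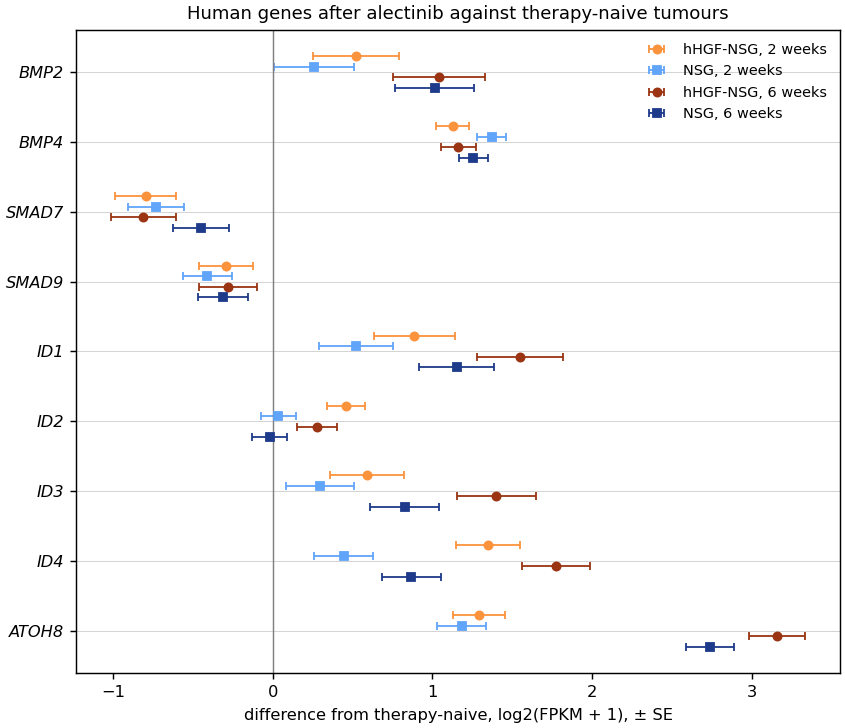
Log2 difference from naive, on the log2(FPKM + 1) scale, for the 9 members that passed the filter, at 2 and 6 weeks in hHGF-NSG and NSG tumours, with error bars of 1 SE from limma. ATOH8 lies farthest to the right at 6 weeks (3.16 in hHGF-NSG and 2.74 in NSG tumours) and SMAD7 and SMAD9 lie left of 0.

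When each member's 6 group means were ordered, most neighbours in the order overlapped in their libraries. For ATOH8 the order was NSG naive, hHGF-NSG naive, NSG 2 weeks, hHGF-NSG 2 weeks, NSG 6 weeks and hHGF-NSG 6 weeks, with gaps between naive and 2 weeks and between 2 and 6 weeks and overlap between hosts at each time. For BMP4 the one gap lay between the naive and the treated groups. For ID3 the one gap lay between NSG and hHGF-NSG tumours at 6 weeks, a comparison in which limma called 0 of 16029 genes. How many of all genes have such a gap was not counted. For the other members each group overlapped the next one in the order. By level per length in hHGF-NSG naive tumours, ID1 (26.9 FPKM) was followed by ID2 (8.39), ID4 (6.18), SMAD7 (5.05), ID3 (2.45), SMAD9 (1.92), BMP4 (1.16), BMP2 (0.981), SMAD6 (0.328) and ATOH8 (0.0743). In hHGF-NSG tumours at 6 weeks ATOH8 (8.81 FPKM) stood next to ID2 (10.3) and ID3 (7.89).

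Host was compared next, at matched treatment. In tumours treated for 6 weeks ID3 averaged 7.89 ± 1.97 FPKM in hHGF-NSG (SD, n = 3) and 4.66 ± 0.584 in NSG tumours (SD, n = 4), a log2 difference of 0.64 ± 0.23. ID1 differed by 0.52 ± 0.25, ATOH8 by 0.43 ± 0.16 and ID4 by 0.25 ± 0.20 in the same comparison, each with overlapping libraries. The treatment difference at 6 weeks in hHGF-NSG minus that in NSG tumours was 0.91 ± 0.28 for ID4, 0.58 ± 0.33 for ID3 and 0.42 ± 0.23 for ATOH8, and at 2 weeks 0.90 ± 0.27 for ID4 and 0.42 ± 0.16 for ID2. On leaving out the library labelled NSG naive replicate 1, the ID4 value was 1.07 at 2 weeks and 1.08 at 6 weeks. Over all human genes limma called 3 of 16029 between the naive hosts (0.0187%) and 0 between hosts at 2 weeks, at 6 weeks or in either response difference (0%), and none of the members was among the 3. At an unadjusted p under 0.05 the counts were 1427, 681, 1946, 859 and 2142 in that order, and limma-voom called 1, 0, 0, 0 and 0 at an adjusted p of 0.05. On leaving out the library labelled NSG naive replicate 1, limma called 40 genes between the naive hosts and 62 in the 6-week response difference, no member among them, and 8 genes passed between hosts at 6 weeks on leaving out NSG 6-week replicate 3.

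By a fixed rule, the genes whose log2 pattern over the 22 libraries was most like that of a member were taken from 8090 genes compared. ATOH8 was most like CRY2, a circadian repressor (Pearson r = 0.969), and AVPI1 (0.966). CRY2 averaged 2.48 FPKM in hHGF-NSG naive, 2.06 in NSG naive, 6.79 in hHGF-NSG 2-week, 6.11 in NSG 2-week, 13.6 in hHGF-NSG 6-week and 13.4 in NSG 6-week tumours. Within groups the same pairs gave r = 0.278 and 0.331, so the likeness lies mostly between group means. BMP4 was most like STOX1 (0.979), CALCOCO1 (0.976) and RASAL1 (0.975), with 0.353, 0.277 and 0.413 within groups. ID1 was most like HSPB1, a small heat shock protein (0.933), JDP2, a bZIP repressor (0.912), and BOK, a BCL2 relative (0.905), and these also held within groups at 0.838, 0.724 and 0.791. SMAD9 was most like UAP1 (0.848) and GFPT1 (0.841), enzymes of the hexosamine pathway, and CPE (0.840), with 0.758, 0.723 and 0.780 within groups. The libraries compared differ in depth, host and share of mouse reads. The part of these in the coefficients was not tested, and the coefficients are a description.

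Other genes of the pathway came from lists written by function, with earlier results of these data known, and were tested by limma with Benjamini-Hochberg adjustment over all 16029 genes. Every list count below stands beside 51.3% to 57.6% of all genes called, with 25.5% to 28.8% in each direction. Most genes named from a list were picked because they were called in all 4 comparisons. Such a call, and its p-value, is therefore part of the choice. Secreted antagonists bind BMPs outside the cell. Of 16 listed, 7 were tested, and 1 rose and 4 fell in hHGF-NSG and 1 rose and 3 fell in NSG tumours at 2 weeks, while 2 rose and 4 fell in hHGF-NSG and 2 rose and 3 fell in NSG tumours at 6 weeks. Their median log2 difference was -0.76 and -0.51 at 2 weeks and -0.44 and -0.35 at 6 weeks, beside 0.032, 0.025, 0.024 and 0.032 over all genes, hHGF-NSG before NSG each time. Noggin (NOG), the classic antagonist of BMP2 and BMP4, had 8.04, 5.37 and 7.36 FPKM in hHGF-NSG naive, 0.0305, 0.615, 0.0640 and 0.0892 at 2 weeks and 0.144, 0.0705 and 0.529 at 6 weeks. NSG tumours had 4.44, 4.62, 10.4 and 8.54 FPKM in naive, 0.164, 0.311, 0.374 and 0.268 at 2 weeks and 0.115, 0.0408, 0.526 and 0.185 at 6 weeks. Every treated library lay below every naive library, and NOG fell by 2.73 ± 0.23 on the log2 scale in hHGF-NSG and by 2.57 ± 0.21 in NSG tumours at 2 weeks (limma adjusted p = 3.78e-09 and 2.73e-09). At 6 weeks it fell by 2.67 and 2.66 (limma adjusted p = 1.89e-08 and 1.74e-09). Chordin (CHRD), which like noggin sequesters BMPs, averaged 0.193 FPKM at 2 weeks and 1.03 in naive hHGF-NSG tumours, and 0.183 at 2 weeks and 1.56 in naive NSG tumours, a log2 difference of -0.76 ± 0.14 and -1.11 ± 0.12 (limma adjusted p = 7.23e-05 and 2.27e-07). NBL1, another cysteine-knot antagonist, rose, by 0.90 ± 0.18 in hHGF-NSG and 0.90 ± 0.15 in NSG tumours at 6 weeks (limma adjusted p = 2.74e-04 and 4.78e-05). FSTL1, a follistatin-like protein, was the other that rose at 6 weeks (0.48 and 0.57), and FSTL3, which binds activin, fell in hHGF-NSG tumours (-1.98 at 2 and -1.19 at 6 weeks). FSTL3 was not called in NSG tumours. This does not show a difference between hosts, as limma called 0 of 16029 genes in either response difference. TWSG1, which acts with chordin, fell in all 4 comparisons, and its call in hHGF-NSG tumours at 6 weeks (-0.44 ± 0.13, limma adjusted p = 0.00938) was lost without hHGF-NSG 6-week replicate 1 (-0.36, adjusted p = 0.0527) and by limma-voom (-0.33, adjusted p = 0.0657). By limma-voom the median over all genes in that comparison was 0.222, against 0.024 by limma, and limma-voom values of genes below carry such an upward shift.

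**Figure D4:**
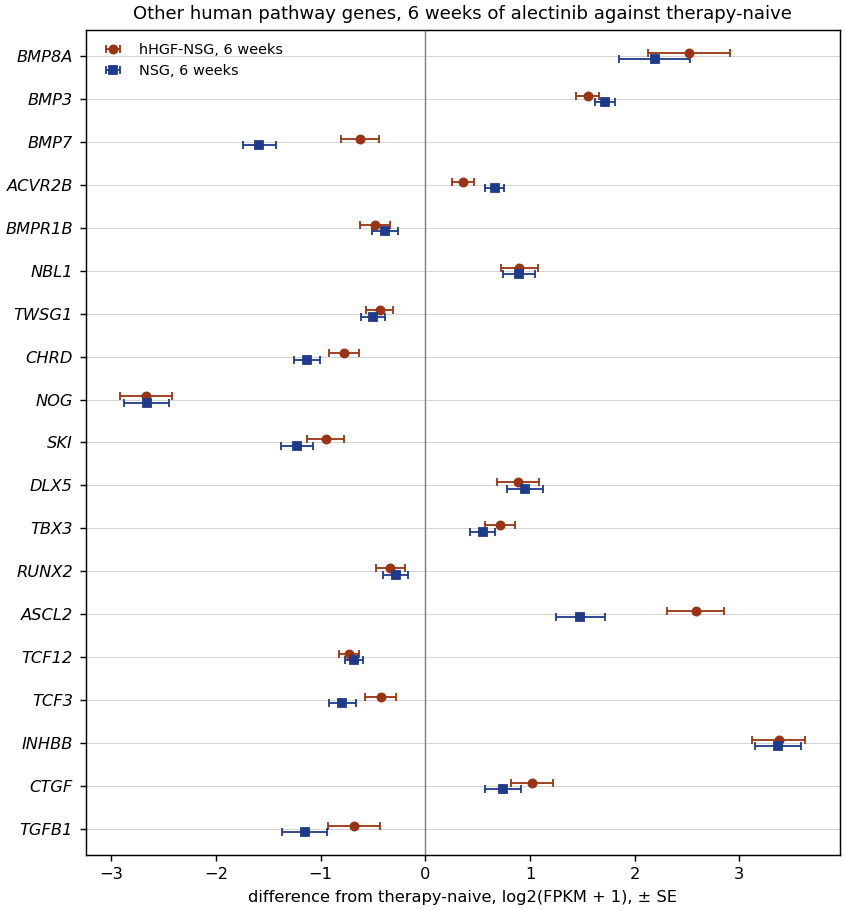
Log2 difference from naive of other BMP pathway genes named in the text, on the log2(FPKM + 1) scale, at 6 weeks in hHGF-NSG and NSG tumours, with error bars of 1 SE from limma. NOG lies at -2.67 in hHGF-NSG and -2.66 in NSG tumours, and INHBB at 3.38 and 3.37.

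Of 12 other BMP and GDF ligands 5 were tested, and 2 rose in each of the 4 comparisons, while 2 fell in hHGF-NSG and 1 in NSG tumours at either time. Over all genes, 51.3% to 57.6% were called in these comparisons. BMP3, a non-canonical ligand that opposes BMP2 in bone, averaged 8.72 FPKM at 6 weeks and 2.31 in naive hHGF-NSG tumours, and 8.87 and 2.00 in NSG tumours, with log2 differences of 1.55 ± 0.11 and 1.72 ± 0.10 (limma adjusted p = 3.85e-10 and 5.79e-12). BMP8A averaged 7.72 FPKM at 6 weeks and 0.515 in naive hHGF-NSG tumours, and 7.46 and 0.672 in NSG tumours, and is nearly identical to BMP8B, so its reads may be split or shared. BMP7, an epithelial ligand, was the one that fell in all 4, to 7.21 FPKM in hHGF-NSG at 6 weeks against 11.6 in naive, and to 6.31 in NSG tumours at 6 weeks against 21.3 in naive. BMP6, the other that fell in hHGF-NSG tumours, differed by -0.87 ± 0.18 in hHGF-NSG and -0.10 ± 0.16 in NSG tumours at 6 weeks (limma adjusted p = 4.24e-04 and 0.601). The BMP7 difference was -0.62 ± 0.18 in hHGF-NSG and -1.58 ± 0.16 in NSG tumours (limma adjusted p = 0.00776 and 4.26e-08). The difference between these responses was 0.96 ± 0.24 (limma adjusted p = 0.159), and naive hHGF-NSG minus naive NSG was -0.78 ± 0.17 (adjusted p = 0.169). On leaving out the library labelled NSG naive replicate 1, both passed the threshold, at 1.15 (limma adjusted p = 0.0200) and -0.97 (adjusted p = 0.00524). Over the pathway genes in the plot of 6-week changes, leaving out that library moved the 38 NSG differences from naive, at 2 and 6 weeks, by -0.19 to 0.12 on the log2 scale and changed no call. Those genes were picked because they were called in all 4 comparisons, so the unchanged calls are largely part of that choice.

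Of 11 receptors and co-receptors 7 were tested, and 1 rose and 3 fell in each host at 2 weeks, while 3 rose and 1 fell in hHGF-NSG and 2 rose and 1 fell in NSG tumours at 6 weeks. These counts are near the 51.3% to 57.6% of all genes called in the same comparisons. ACVR2B, a type II receptor, rose in all 4 comparisons, by 0.36 ± 0.10 and 0.66 ± 0.09 at 6 weeks (limma adjusted p = 0.00648 and 2.73e-06). BMPR1B, a type I receptor, fell in all 4, by 0.48 and 0.39 at 6 weeks (limma adjusted p = 0.00802 and 0.0106), and lost its call without hHGF-NSG naive replicate 2 (adjusted p = 0.0519) or 6-week replicate 1 (0.0607) in hHGF-NSG, and without NSG naive replicate 2 (0.0505) in NSG tumours. By limma-voom BMPR1B passed in neither host at 2 weeks (-0.28 and -0.13, adjusted p = 0.141 and 0.460) nor in NSG tumours at 6 weeks (-0.27, adjusted p = 0.137). BMPR2, the main type II receptor, differed by -0.50 ± 0.10 and -0.50 ± 0.09 at 2 weeks (limma adjusted p = 2.57e-04 and 1.03e-04) and by -0.19 ± 0.11 and -0.01 ± 0.09 at 6 weeks (adjusted p = 0.144 and 0.969). The transducers SMAD1, SMAD5 and SMAD4 were not called by limma in any of the 4 comparisons, where 1 of 12 tests had an unadjusted p under 0.05 (SMAD5 in NSG tumours at 6 weeks, 0.21 ± 0.10, adjusted p = 0.0760). By limma-voom 2 of the 12 were called, SMAD5 (0.46 ± 0.11, adjusted p = 0.00117) and SMAD4 (0.44 ± 0.10, adjusted p = 7.29e-04), both in NSG tumours at 6 weeks. In that comparison the median over all genes was itself 0.279 by limma-voom, against 0.032 by limma. These 2 calls are therefore not read as rises of the transducers. Of 4 intracellular inhibitors, SKI, a nuclear co-repressor of SMADs, fell in all 4, by 0.95 ± 0.18 and 1.22 ± 0.15 at 6 weeks (limma adjusted p = 1.51e-04 and 1.03e-06). The list held 2 falling genes in hHGF-NSG tumours at either time and in NSG tumours at 2 weeks, the other being SMURF2, a ubiquitin ligase, and its relative SMURF1 rose in NSG tumours, by 0.29 ± 0.07 at 2 weeks and 0.41 ± 0.07 at 6 weeks.

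Other BMP targets did not move as one. Of 12 listed 7 were tested, and 3 rose and 1 fell at 2 weeks, and 2 rose and 1 fell at 6 weeks, in each host. Of all genes, 54.1% in hHGF-NSG and 56.1% in NSG tumours were called at 2 weeks, and 51.3% and 57.6% at 6 weeks. The counts therefore do not set this list apart. Its median log2 difference at 6 weeks was 0.10 in hHGF-NSG and -0.06 in NSG tumours, beside 0.024 and 0.032 over all genes. DLX5, a homeobox gene, rose by 1.32 ± 0.19 in hHGF-NSG and 1.06 ± 0.17 in NSG tumours at 2 weeks (limma adjusted p = 5.93e-06 and 3.28e-05). TBX3, a T-box repressor, rose by 0.82 ± 0.13 and 0.52 ± 0.12 at 2 weeks (limma adjusted p = 2.56e-05 and 0.00113). HEY1, a repressor that both BMP and Notch induce, was the other that rose at 2 weeks (1.16 ± 0.20 and 1.23 ± 0.19, limma adjusted p = 6.85e-05 and 1.36e-05) and differed by 0.49 and 0.42 at 6 weeks (adjusted p = 0.0682 and 0.0627). RUNX2, an osteoblast factor, fell by 0.33 and 0.28 at 6 weeks (limma adjusted p = 0.0469 and 0.0460), calls that were lost on leaving out any of 11 and of 12 single libraries (adjusted p between 0.0508 and 0.147, and between 0.0505 and 0.130), and limma-voom called neither (adjusted p = 0.196 and 0.425).

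The partners that ID proteins bind, and the tissue factors those partners pair with, moved in both directions. Of 10 basic helix-loop-helix genes 5 were tested, and 2 rose and 2 fell in each comparison except NSG at 6 weeks, where 2 rose and 3 fell. Over all genes, 51.3% to 57.6% were called. ASCL2, a basic helix-loop-helix factor, rose in all 4 comparisons, by 2.58 ± 0.27 in hHGF-NSG and 1.48 ± 0.24 in NSG tumours at 6 weeks (limma adjusted p = 1.20e-07 and 2.12e-05). The E proteins TCF12 and TCF3, the direct partners of ID proteins, fell in all 4, TCF12 by 0.73 and 0.68 and TCF3 by 0.43 and 0.79 at 6 weeks (limma adjusted p = 2.94e-06, 8.75e-07, 0.0187 and 1.99e-05). The TCF3 call in hHGF-NSG tumours at 6 weeks was lost without hHGF-NSG 6-week replicate 3 (-0.31, adjusted p = 0.111) or naive replicate 3 (-0.32, adjusted p = 0.103), and by limma-voom (-0.26, adjusted p = 0.162).

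In the neighbouring TGF-beta and activin branch 10 of 13 genes were tested, and 3 rose and 6 fell except in NSG tumours at 6 weeks, where 3 rose and 5 fell. The share of all genes called was 51.3% to 57.6%, with 25.5% to 28.8% in each direction. INHBB, the beta subunit of activin B, averaged 1.13 FPKM in naive, 6.39 at 2 weeks and 20.5 at 6 weeks in hHGF-NSG tumours, and 1.34, 8.48 and 22.6 in NSG tumours. Between 6 and 2 weeks INHBB rose by 1.52 ± 0.24 and 1.31 ± 0.22 (limma adjusted p = 1.69e-04 and 2.37e-04). CTGF (now CCN2), a matricellular target of TGF-beta, rose by 2.09 ± 0.19 and 1.83 ± 0.17 at 2 weeks and had a log2 difference between 6 and 2 weeks of -1.08 and -1.09 in that order of hosts (limma adjusted p = 5.33e-04 and 1.39e-04). The ligand TGFB1 fell by 0.68 and 1.15 at 6 weeks (limma adjusted p = 0.0264 and 1.22e-04). The TGF-beta receptor TGFBR2 and the transducer SMAD3, named here after their values were seen, also fell in all 4 comparisons, TGFBR2 by 0.85 and 0.77 and SMAD3 by 1.09 and 0.85 at 6 weeks. The TGFB1 call in hHGF-NSG tumours at 6 weeks was lost without hHGF-NSG naive replicate 1 (-0.62, adjusted p = 0.0800), naive replicate 3 (-0.53, adjusted p = 0.119) or 6-week replicate 3 (adjusted p = 0.0771), and by limma-voom (-0.56, adjusted p = 0.0676).

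The same genes were read in the host's own cells from the mouse table, which the choice of human genes did not use. It held 895826 to 5766509 reads per library for 20 libraries, since NSG naive replicate 2 and NSG 6-week replicate 4 were not analysed there. Of the 10 mouse orthologues 9 passed the filter and entered limma with 14287 genes. In hHGF-NSG 1 rose at 2 weeks and 3 rose at 6 weeks, and in NSG 0 were called at 2 weeks and 2 rose and 1 fell at 6 weeks. Of all mouse genes at 2 weeks, 7.06% were called in hHGF-NSG (3.49% higher, 3.56% lower) and 7.80% in NSG (3.32% higher, 4.48% lower). At 6 weeks 17.8% were called in hHGF-NSG (9.67% higher, 8.12% lower) and 17.4% in NSG (8.81% higher, 8.59% lower). At an unadjusted p under 0.05, 4 orthologues passed in NSG at 2 weeks, where limma-voom on recovered reads called 1.

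Id3 rose in the host cells. It had 44.4, 38.0 and 33.5 FPKM in hHGF-NSG naive, 75.7, 64.0, 78.8 and 89.2 at 2 weeks and 88.6, 80.4 and 86.7 at 6 weeks. In NSG libraries it had 20.5, 54.2 and 47.2 FPKM in naive, 64.7, 75.7, 73.2 and 50.6 at 2 weeks and 75.8, 62.3 and 81.0 at 6 weeks. All treated libraries of either host but one, NSG 2-week replicate 4, lay above every naive library, and the log2 difference at 6 weeks was 1.13 ± 0.26 in hHGF-NSG and 0.93 ± 0.26 in NSG (limma adjusted p = 0.00451 and 0.0160). At 2 weeks it was 0.97 ± 0.24 and 0.78 ± 0.24 (limma adjusted p = 0.0195 and 0.0510). The NSG call at 6 weeks was lost on leaving out the library labelled NSG naive replicate 1 (0.51, limma adjusted p = 0.0665), NSG 6-week replicate 1 (adjusted p = 0.0506) or 3 (0.0640), and the hHGF-NSG call at 2 weeks without naive replicate 2 (adjusted p = 0.0563) or 3 (0.0568). The hHGF-NSG call at 6 weeks held under all 25 alternatives, with adjusted p between 0.000227 and 0.0185.

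Id1 rose in hHGF-NSG hosts at 6 weeks. It had 12.9, 13.2 and 19.4 FPKM in hHGF-NSG naive, 28.5, 24.2, 50.4 and 19.2 at 2 weeks and 32.5, 54.6 and 55.4 at 6 weeks. In NSG libraries it had 17.0, 36.0 and 31.1 FPKM in naive, 19.8, 25.9, 21.0 and 21.5 at 2 weeks and 43.2, 36.5 and 46.5 at 6 weeks. The hHGF-NSG 6-week libraries lay above the naive ones (1.56 ± 0.30, limma adjusted p = 0.00152, and between 0.000430 and 0.0112 over 25 alternatives), and the NSG difference at 6 weeks was 0.63 ± 0.30 (adjusted p = 0.169), or 0.31 without NSG naive replicate 1. The difference between the hosts in this response was not tested. Id4 differed by 1.04 ± 0.30 in hHGF-NSG and 0.94 ± 0.30 in NSG at 6 weeks (limma adjusted p = 0.0228 and 0.0383), on levels of 3.36 to 7.38 FPKM at 6 weeks and 0.922 to 4.27 in naive libraries. Both Id4 calls rest on few libraries. The hHGF-NSG call was lost without naive replicate 2 (0.60, limma adjusted p = 0.135), 6-week replicate 1 (0.0809) or 2 (0.0710). The NSG call was lost on leaving out any of 5 single libraries (0.73 to 0.99, limma adjusted p between 0.0662 and 0.171). It was also lost with a pseudocount of 0.1 (limma adjusted p = 0.0514), with no filter (0.0722) and by limma-voom (adjusted p = 0.106). Id2 was not called in any of the 4 comparisons, with log2 differences of -0.32, -0.55, -0.59 and -0.52.

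**Figure D5:**
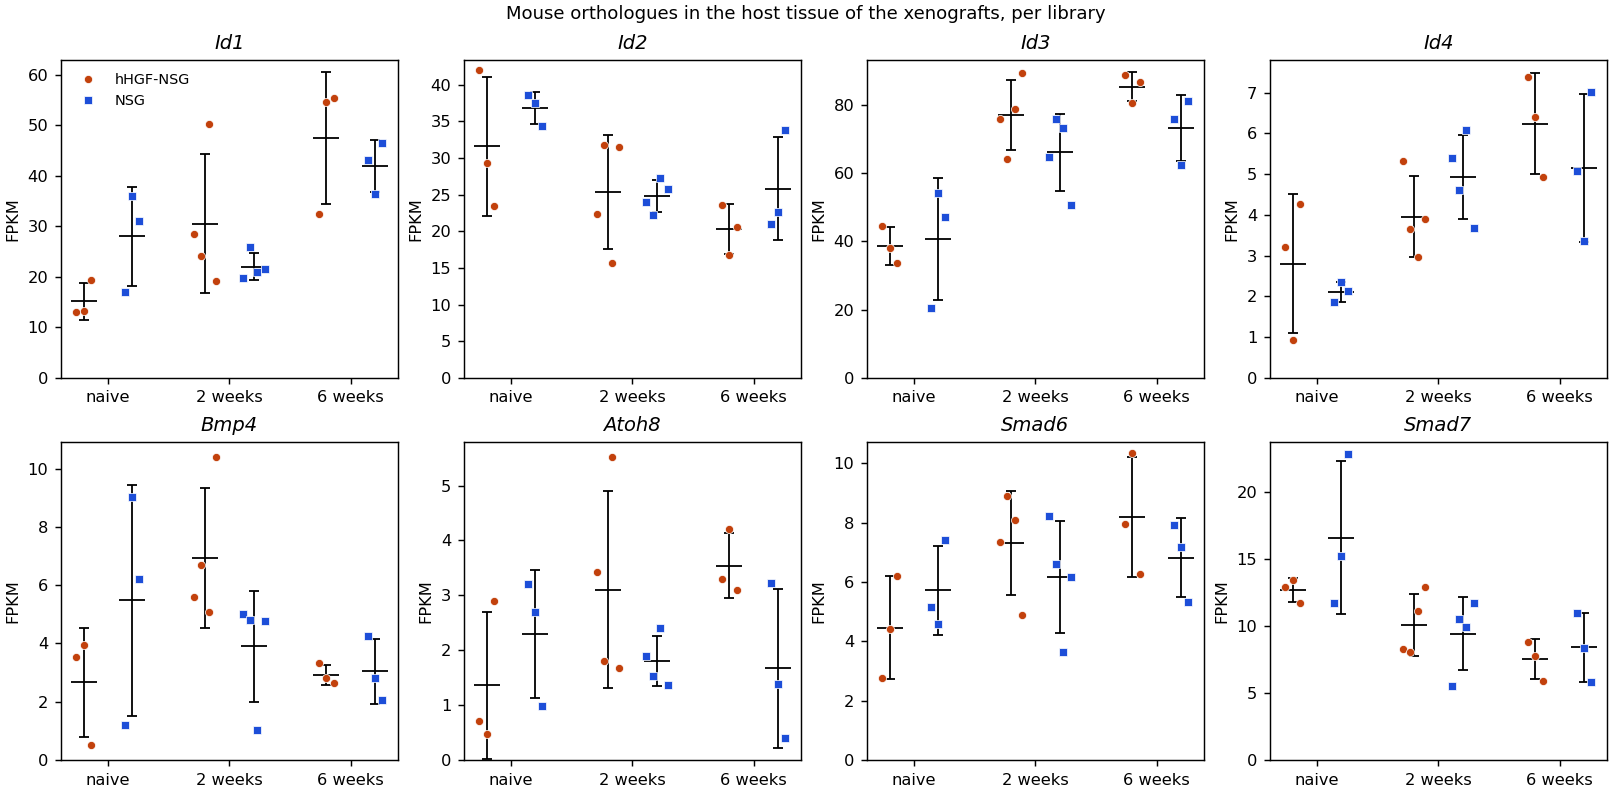
Expression of mouse orthologues of the members in FPKM, one point per library, by host and treatment, with a black bar at the group mean and an error bar of 1 SD. Mouse Id3 lies at 33.5 to 44.4 FPKM in hHGF-NSG naive and at 80.4 to 88.6 FPKM in hHGF-NSG 6-week libraries.

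Smad7 fell in NSG hosts at 6 weeks (-0.89 ± 0.27, limma adjusted p = 0.0283), with 10.99, 8.40 and 5.82 FPKM at 6 weeks and 11.7, 15.2 and 22.9 in naive libraries. Without NSG naive replicate 1 Smad7 stood at -1.10 at 6 weeks (limma adjusted p = 0.0126), and at 2 weeks it passed, at -0.96 (adjusted p = 0.0389) against -0.75 with it (adjusted p = 0.0804). The 6-week call was lost on leaving out any of 4 other single libraries (-0.93 to -0.65, limma adjusted p between 0.0560 and 0.145). It was also lost with no filter (limma adjusted p = 0.0517) and with a replicate block (-0.74, limma adjusted p = 0.0650). In hHGF-NSG the difference was -0.70 ± 0.27 (adjusted p = 0.0826). Atoh8 was not called in any of the 4 comparisons: it ranged from 3.101 to 4.21 FPKM at 6 weeks and 0.472 to 2.90 in naive hHGF-NSG, and from 0.394 to 3.23 and 0.982 to 3.21 in NSG, with log2 differences of 1.08 ± 0.42 and -0.38 ± 0.42 (limma adjusted p = 0.0880 and 0.591). Smad6 differed by 0.78 ± 0.28 in hHGF-NSG and 0.23 ± 0.28 in NSG at 6 weeks (adjusted p = 0.0622 and 0.636), and Bmp2 and Bmp4 were not called. Smad9 had 0 to 9 reads per library and was not tested.

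The makeup of the host tissue shifted at the same time. The 7 endothelial markers summed to 167 to 260 FPKM at 6 weeks and 197 to 249 in naive hHGF-NSG libraries, and to 126 to 164 and 212 to 307 in NSG libraries. The smooth muscle markers summed to 85.4 to 190 FPKM at 6 weeks and 622 to 948 in naive hHGF-NSG, and to 121 to 152 and 514 to 851 in NSG. The adipocyte markers summed to 1260 to 2697 FPKM at 6 weeks and 151 to 446 in naive hHGF-NSG, and to 1345 to 1638 and 86.9 to 367 in NSG. The part of these shifts in the mouse results was not tested. Beyond the orthologues, the antagonist Nbl1 rose in the host as NBL1 did in the tumour cells, by 2.01 ± 0.31 in hHGF-NSG and 2.31 ± 0.31 in NSG at 6 weeks (limma adjusted p = 2.91e-04 and 7.76e-05), and averaged 412 FPKM at 6 weeks and 101 in naive hHGF-NSG, and 444 and 94.3 in NSG. The ligand Gdf6 fell in all 4 comparisons, by 1.67 and 1.85 at 6 weeks, and the co-receptor Rgmb rose in all 4, by 0.86 and 1.30 (limma adjusted p = 0.00274, 0.00126, 0.00276 and 1.07e-04). Nbl1, Gdf6 and Rgmb were named because each was called in all 4 comparisons. Without NSG naive replicate 1 the NSG values at 6 weeks were 1.92 for Nbl1, -1.86 for Gdf6 and 1.30 for Rgmb.

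Over the 20 libraries with both tables, mouse reads made up different shares of the reads of each gene pair. The share was 75.8% for ID3 (2131 human and 6664 mouse reads), 62.2% for SMAD6, 33.8% for SMAD7, 32.5% for ID2, 21.5% for BMP2, 14.5% for BMP4, 11.1% for ID1 (17056 human and 2129 mouse reads), 8.32% for ID4, 6.47% for ATOH8 and 1.72% for SMAD9. For SMAD6 the share was 41.1% in hHGF-NSG and 29.6% in NSG naive tumours, 65.8% and 59.2% at 2 weeks and 79.5% and 78.8% at 6 weeks, so mouse reads outnumbered human ones after treatment but not before it. For ID3 they did so in all 6 groups, with shares of 58.8% to 79.4%. For ATOH8 the mouse share was 5.63% in hHGF-NSG and 2.29% in NSG tumours at 6 weeks, against 53.5% and 61.4% in naive tumours. How reads were assigned to a species is not stated in the labels. Human reads of the 7 fibroblast markers came to between 0.0129% (DCN) and 10.4% (LUM) of mouse reads, with COL1A1 at 4.74%. Those of the 7 endothelial markers ranged from 0.266% (PECAM1) to 173% (KDR), with CDH5 at 32.9% and VWF at 41.4%. The source of these human reads was not tested.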

How the data were processed

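Total RNA of H3122 xenograft tumours was isolated (TRIzol) and made into 22 libraries by Novogene's guidelines, per the labels' protocols. The deposited values are FPKM per gene in a human and a mouse table, per the file headers. Builds GRCh38, hg38 and mm10 and the tool DESeq2 are named in the submitters' processing notes, while the aligner, counter, strand setting and way of separating species were not given in the sources used here. Whole read counts per gene stand beside FPKM only as recovered from the low values: 100% of the low values above 0 came out whole within 0.05 reads. Log2(FPKM + 1) values of genes that reached 1 FPKM in 3 or more libraries were fitted with limma 3.58.1 in R 4.3.3, with 1 mean for each of the 6 groups and all libraries of a table in 1 fit, and Benjamini-Hochberg adjustment over all genes tested. Alternatives were a pseudocount of 0.1, no filter, median-ratio scaling, limma-voom on the recovered reads scaled by library totals (chosen after the data were seen), a replicate block, and leaving out each library in turn. Members, gene lists and motifs were chosen with earlier results of these data known. Named list genes are those called in all 4 treatment comparisons, at most 4 per list by mean absolute change, and other genes are named where a count was 5 or fewer. No 2 libraries agreed within sampling noise (chi-square per degree of freedom at least 4.28 in human and 3.95 in mouse libraries). No column of either table was left out. Some genes of the lists and of the likeness ranking are counted but not reported here by name.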

Additional observations from a re-analysis of the deposited data

Results flagged for a closer look

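In groups of 4 libraries, Dixon's test at the 95% level marked 12 of 148 groups tested over the members, orthologues and genes named here, where chance marks about 1 in 20. Among the members and orthologues it marked SMAD9 in NSG 2-week replicate 2 (2.03 FPKM, the others 1.40 to 1.48), mouse Bmp4 in NSG 2-week replicate 3 (1.04 FPKM, the others 4.78 to 5) and mouse Smad9 in hHGF-NSG 2-week replicate 1 (0.399 FPKM, the others 0). Among the receptors and antagonists it marked ACVR2B in NSG 6-week replicate 3 (1.66 FPKM), BMPR1B in NSG 2-week replicate 3 (3.13 FPKM), NOG in hHGF-NSG 2-week replicate 2 (0.615 FPKM), and CHRD in hHGF-NSG 2-week replicate 3 (0.293 FPKM) and NSG 2-week replicate 1 (0.293 FPKM). It marked RUNX2 in NSG 6-week replicate 4 (2.87 FPKM) and mouse Tgfb3 in NSG 2-week replicate 3 (176 FPKM). Human HGF was marked in the library labelled NSG naive replicate 1 (0.320 FPKM) and in NSG 6-week replicate 3 (0.0468 FPKM). With all libraries, no difference between the hosts' responses passed the limma test for a member or a named human gene, whereas without NSG naive replicate 1 that of BMP7 passed at 6 weeks (1.15, limma adjusted p = 0.0200).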

How the results depend on the processing

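No called value changed direction. Of the single-gene values under alternatives, 2609 of the human members' kept their side of the threshold, 48 became weaker and 16 stronger, and for the orthologues these counts were 860, 22 and 18. The members' counts pool host comparisons without a called member and fits that left out a library outside the comparison. They are therefore no measure of stability. ID4 in NSG tumours at 2 weeks lost its call on leaving out any of 14 single libraries (0.28 to 0.46). Counts of called members here are a description, since their values chose the genes. Called genes between naive hosts numbered 3, against 5 with a pseudocount of 0.1, 25 with no filter, 1 with the replicate block and 1 with limma-voom; between hosts at 2 weeks 0, against 2 with no filter; and at 6 weeks 0, against 1 with no filter. The 2-week response difference had 0, against 9 with no filter, and the 6-week one 0, against 6 with a pseudocount of 0.1 and 5 with no filter. Members called in NSG at 2 weeks numbered 5, against 3 with no filter; between 6 and 2 weeks 2 in NSG, against 1 with no filter and 1 with the replicate block, and 2 in hHGF-NSG, against 1 with a pseudocount of 0.1 and 1 with no filter. Orthologues called numbered 0 in NSG at 2 weeks, against 1 with the replicate block and 1 with limma-voom; 1 in hHGF-NSG at 2 weeks, against 2 with the block; and 3 in NSG at 6 weeks, against 1 with no filter. The cause of these moves was not tested. Limma-voom with TMM scaling was not run, and library totals were used in its place. So scaled, the median difference from naive over all human genes was 0.288 and 0.314 at 2 weeks. At 6 weeks it was 0.222 and 0.279, hHGF-NSG before NSG. By limma on FPKM these medians were 0.032, 0.025, 0.024 and 0.032. Limma-voom values of single human genes carry that upward shift, which favours rises over falls. Leaving out 1 library gave 0 to 40 called genes between naive hosts, 0 to 1 at 2 weeks, 0 to 8 at 6 weeks and 0 to 62 for the 6-week response difference. It gave 655 to 1214 mouse genes in NSG and 483 to 1132 in hHGF-NSG at 2 weeks, and 1641 to 2664 in hHGF-NSG at 6 weeks. Members called ranged from 3 to 6 in NSG at 2 weeks, and between 6 and 2 weeks from 1 to 3 in NSG and 1 to 4 in hHGF-NSG. Orthologues called ranged from 0 to 2 in either host at 2 weeks, and at 6 weeks from 0 to 3 in NSG and 2 to 6 in hHGF-NSG. Replicate numbers did not pair the libraries: same-numbered libraries correlated at -0.329 to 0.265 over 51 pairs in their deviations from group means, and others at -0.352 to 0.280. Depth limits SMAD6 and naive ATOH8 in human reads and all naive mouse values, where Id1 rests on 17 to 59 reads.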
